A study of Rattus norvegicus with 4 samples.

Results

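The circRNAs described here came from 8 host genes whose proteins act in the membrane skeleton, the cell scaffold or myelin: Utrn, Sbf2, Ugt8, Dst, Epb41l3, Ank3, Dlg1 and Mpp6. They were grouped as Schwann cell genes, which the data do not check. A circRNA was included when the deposited annotation gave one of these symbols as its host gene, whatever its reads, which gave 36 of the 4942 circRNAs listed and 8 of 2327 host genes. Total RNA came from sciatic nerves of Sprague-Dawley rats in postnatal week 6. For crush, a hemostatic forceps closed on 3 mm of the nerve 2 times for 15 s, 3 s apart. For sham, surgery stopped once the nerve was exposed. The injured or exposed stretch and 1 mm at either end were taken 24 h later as whole tissue, so every cell type of the segment contributed, and both groups had been operated on. There were 2 libraries in each group, and the labels leave unsaid whether these were separate animals. The p-values below therefore measure the spread between these samples alone, which may be technical.

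A circRNA forms when the splicing machinery joins the end of a downstream exon back to the start of an upstream exon of the same transcript, and only a read across that back-splice junction tells it from the linear mRNA. Schwann cells wrap peripheral axons in myelin, a membrane rich in galactolipids, and hold it to the basal lamina outside and to the axon inside through membrane skeletons. After a nerve is crushed, Schwann cells leave the myelinating state and become repair cells, while axons and myelin beyond the lesion are broken down. The host genes are also expressed outside Schwann cells, among them Utrn, Dst, Ank3 and Dlg1 in muscle, neurons or epithelia.

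CircRNAs are spliced out of transcripts that begin at a promoter of the host gene. Promoter sequences are shown for the hosts of the 2 circRNAs that had enough reads to be tested one by one, Ugt8 and Epb41l3. A single window was taken for each host, and whether the transcripts of these circRNAs began there was not tested. These are the 250 bases before the RefSeq start in the GRCr8 build, which is not the build of the deposited coordinates, with capitals marking GGGCGG or its reverse CCGCCC, the GC box bound by Sp factors. The sequences of the back-splice junctions themselves were not analysed here.
Ugt8, chr2:217007168-217007417, minus strand: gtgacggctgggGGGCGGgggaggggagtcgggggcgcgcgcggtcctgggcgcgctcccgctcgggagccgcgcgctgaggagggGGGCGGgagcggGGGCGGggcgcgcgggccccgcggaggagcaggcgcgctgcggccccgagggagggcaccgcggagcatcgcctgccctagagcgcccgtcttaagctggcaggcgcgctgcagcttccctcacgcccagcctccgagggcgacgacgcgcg
Epb41l3, chr9:116583010-116583259, plus strand: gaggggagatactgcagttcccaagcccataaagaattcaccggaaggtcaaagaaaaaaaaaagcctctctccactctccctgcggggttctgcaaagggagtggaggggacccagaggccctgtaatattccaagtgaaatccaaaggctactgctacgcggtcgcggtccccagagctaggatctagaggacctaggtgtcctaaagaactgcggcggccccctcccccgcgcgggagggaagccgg
The Ugt8 window held 3 GC boxes and 81.2% G and C, and the Epb41l3 window held none and 57.6%. Counted on both strands, with overlapping matches counted separately, 4 of the 8 hosts (Sbf2, Ugt8, Dst and Mpp6, whose current symbol is Pals2) had a GC box in this window, against 30.5% of 33469 rat promoters. None of the 8 windows held ACAAAG, a core letter string of SOX factors (16.3% of all promoters), GCGTGGGCG, the site of EGR factors (0.478%), or TGACTCA, the AP-1 site (4.05%), on either strand; a GC box and the EGR site share letters and could overlap. These matches describe letters in the window and say nothing of binding.

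The 36 circRNAs had few reads. They held 157 of the 35021 back-splice junction reads of the 4 libraries, the highest count of one circRNA in one library was 10, and 70.8% of their counts above 0 were 2 or 3 reads, against 64.3% over all circRNAs. Library totals were 8250 and 9027 for crush, against 9018 and 8726 for sham. The deposited SRPBM signal multiplies these reads by a constant for each library, whose total is not stated in the sources used here: 1 read was worth 0.0725 SRPBM in crush replicate 1, 0.0598 in crush replicate 2, 0.0729 in sham replicate 1 and 0.0786 in sham replicate 2. The lowest count above 0 was 2, and a 0 means that the circRNA was not reported in that library. Of the 36, 35 were classed as exonic and 1 as intronic, 28 were reported in 1 library (77.8%, against 72.6% of all circRNAs), 5 in 2 libraries, 2 in 3 and 1 in all 4.

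**Figure D1:**
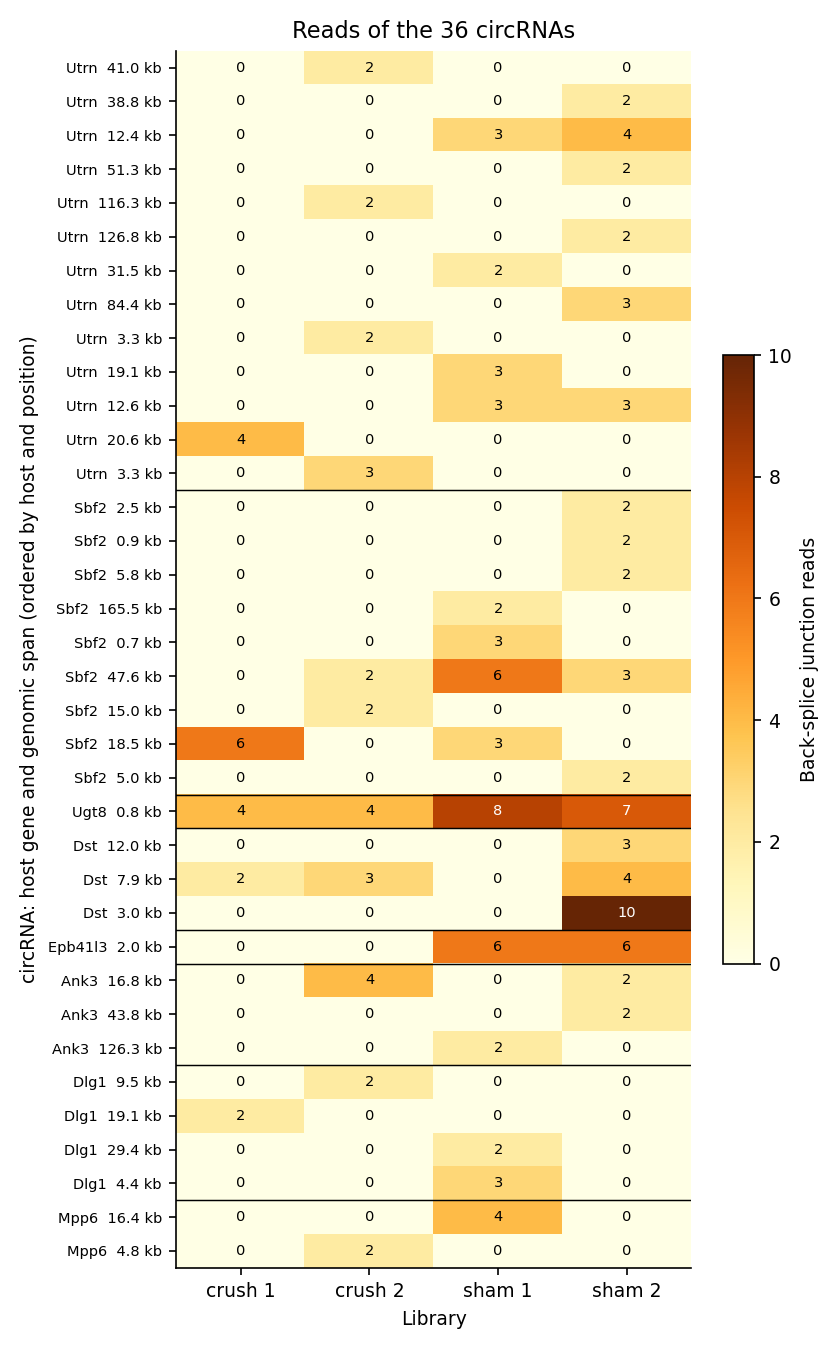
Back-splice junction reads of each of the 36 circRNAs (rows, by host gene and genomic span) in the 4 libraries (columns), with the count in each cell and darker colour for more reads. The Ugt8 circRNA has reads in every library, the Epb41l3 circRNA has 6 and 6 in the sham libraries only, and most other rows have a single filled cell.

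Summed over the 8 hosts, junction reads were lower in crush libraries. The sums were 18 and 28 reads in crush libraries, against 50 and 61 in sham libraries. Both crush libraries lay below both sham libraries. In SRPBM the sum was 1.49 ± 0.26 in crush libraries and 4.22 ± 0.82 in sham libraries (SD, n = 2 each), a crush to sham ratio of 0.353. The share of all junction reads was 0.218% (95% interval 0.129% to 0.345%) in crush replicate 1 and 0.310% (0.206% to 0.448%) in crush replicate 2. It was 0.554% (0.412% to 0.730%) in sham replicate 1 and 0.699% (0.535% to 0.897%) in sham replicate 2. These exact Clopper-Pearson intervals cover counting error only, and those of crush replicate 2 and sham replicate 1 overlap. The scale matters here: the median log2 change of the 434 tested hosts was -0.30 with the SRPBM constants as scaling and 0.11 with TMM, the scaling of the tests, and as a share of junction reads the ratio of the sum was 0.422. The hosts were picked with results of these data known, so the sum has no test. In whole nerve, fewer cells of a type and less RNA per cell cannot be told apart. Without the most abundant circRNA of each host the ratio was 0.560, from 14 and 18 reads in crush libraries and 20 and 29 in sham libraries.

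Fewer of these circRNAs were reported in crush libraries as well. The files list 5 and 11 of the 36 with reads in crush libraries and 14 and 18 in sham libraries, while of all 4942 circRNAs they list 1785 and 2022 in crush libraries and 1704 and 1711 in sham libraries. Of the 36, 9 were reported in crush libraries only, 22 in sham libraries only and 5 in both groups, which is 25.0%, 61.1% and 13.9%, against 43.9%, 36.7% and 19.3% of all circRNAs. No circRNA of these hosts was reported in both crush libraries and no sham library, a pattern of 4.51% of all circRNAs. In both sham libraries and no crush library, 3 were reported (8.33%, against 3.56% of all circRNAs): 2 of Utrn and that of Epb41l3. Both crush libraries lay below both sham libraries for 5 of the 36 circRNAs, which held for 8.13% of all circRNAs.

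**Figure D2:**
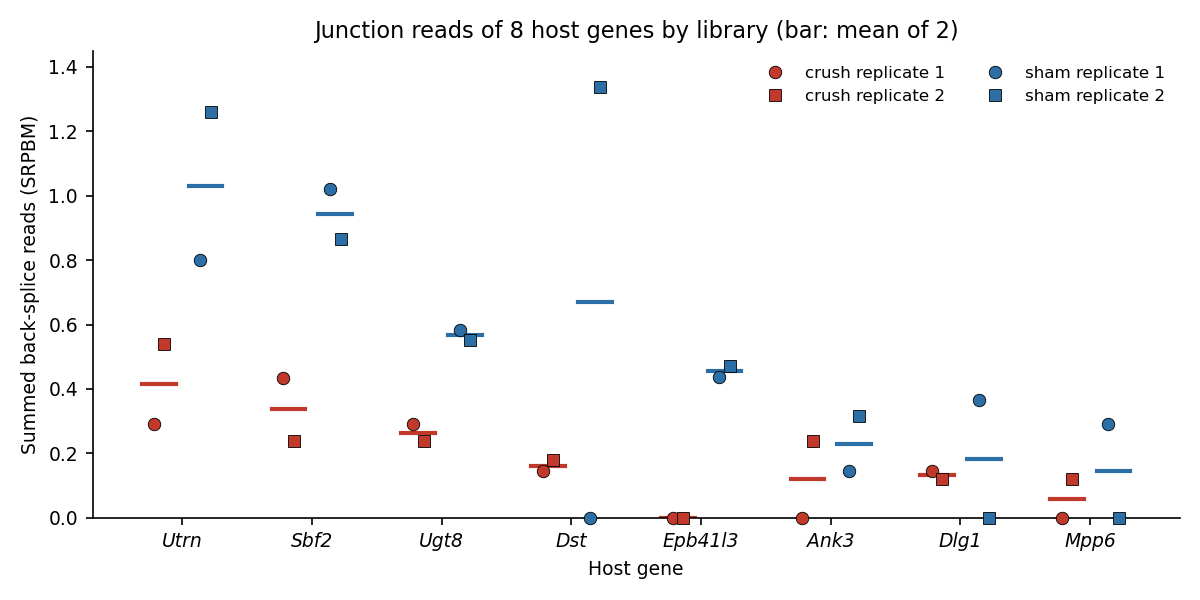
Summed back-splice reads in SRPBM (vertical axis) for each host gene, with crush libraries in red to the left of sham libraries in blue, circles for replicate 1, squares for replicate 2 and a bar at the mean of 2. Utrn, Sbf2, Ugt8 and Epb41l3 have both crush points below both sham points, and the 2 sham points of Dst lie at 0 and 1.34 SRPBM.

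For 4 of the 8 hosts, Utrn, Sbf2, Ugt8 and Epb41l3, both crush libraries lay below both sham libraries in SRPBM, which held for 13.7% of all 2327 hosts and 35.9% of the 434 hosts with enough reads to test. For the other 4 hosts the groups overlapped, and none had both crush libraries above both sham libraries, which held for 11.1% of all hosts. The same 4 hosts were the ones with at least 5 reads in at least 2 libraries, the filter of the host test. None of them passed that test (edgeR quasi-likelihood test, adjusted p under 0.05), in which 2.3% of hosts passed, 0.461% as lower in crush libraries and 1.84% as higher. At an unadjusted p under 0.05, 1 of the 4, Epb41l3, was lower, against 9.45% of the 434. It met the filter through the sham libraries alone, where it was high, as did Ugt8, so nothing is read from that share. Without Dst the crush to sham ratio of the whole sum was 0.374. The 4 hosts that missed the filter had 4 and 11 reads in crush libraries and 11 and 21 in sham libraries, of which Dst gave 17 in sham replicate 2. Without Dst they had 2 and 8 reads in crush libraries and 11 and 4 in sham libraries, and the groups overlapped.

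Utrn (ENSRNOG00000011058, chromosome 1) encodes utrophin, a relative of dystrophin that ties actin filaments to dystroglycan and through it to laminin of the basal lamina. It gave 13 circRNAs, all exonic and on the minus strand, over 306986 bases. All circRNA positions here are those of the files, on Rnor_6.0. Their reads summed to 4 and 9 in crush libraries, against 11 and 16 in sham libraries. Both crush sums were lower than both sham sums, and crush replicate 2 came within 2 reads of sham replicate 1. The level was 0.414 ± 0.175 SRPBM in crush libraries and 1.03 ± 0.32 in sham libraries (SD, n = 2 each). The log2 change was -0.85 ± 0.63 (SE), which did not pass the host test (adjusted p = 0.432, edgeR quasi-likelihood test). Single libraries moved it: leaving out crush replicate 1 gave -0.31, leaving out crush replicate 2 gave -1.29, and leaving out sham replicate 1 gave -1.30.

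No Utrn circRNA was reported in both groups: 5 were reported in crush libraries only and 8 in sham libraries only. The most abundant one, 6601452 to 6613874, had 0 and 0 reads in crush libraries and 3 and 4 in sham libraries. A second one, 6804365 to 6816920, had 0 and 0 reads in crush libraries and 3 and 3 in sham libraries. These were the only Utrn circRNAs reported in both libraries of a group. Both shared an end with another circRNA of the gene. The first shared its end at 6613874 with a circRNA starting at 6575079, which had 2 reads in sham replicate 2 alone. The second shared its start at 6804365 with a circRNA reaching 6824947, which had 4 reads in crush replicate 1 alone, the highest count of a Utrn circRNA in crush libraries. The remaining 9 had 2 or 3 reads in 1 library each.

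Dst (ENSRNOG00000012207, chromosome 9) encodes dystonin, a plakin that links intermediate filaments, actin and microtubules, and whose loss causes a sensory neuropathy in the mouse. Its 3 circRNAs had 2 and 3 reads in crush libraries, against 0 and 17 in sham libraries. The sham libraries disagreed, one being the lowest of the 4 and the other the highest, so the groups overlapped. With 5 reads or more in sham replicate 2 alone, the host missed the filter of the test. The level was 0.162 ± 0.024 SRPBM in crush libraries and 0.669 ± 0.945 in sham libraries (SD, n = 2 each). One circRNA of 3025 bases in genomic span, 38023561 to 38026586, had all of its 10 reads in sham replicate 2, the highest count among the 36. The circRNA at 38014670 to 38022569 had 2 and 3 reads in crush libraries and 0 and 4 in sham libraries, and was the only one besides that of Ugt8 to be reported in both crush libraries. The remaining one, 37910962 to 37923009, had 3 reads in sham replicate 2.

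Epb41l3 (ENSRNOG00000016724) encodes a relative of a red cell membrane skeleton protein, which in myelinated axons and Schwann cells joins adhesion molecules to spectrin and actin beside the node of Ranvier. It had 1 circRNA, exonic, on the plus strand of chromosome 9, 117583609 to 117585639. That circRNA had 0 and 0 reads in crush libraries, against 6 and 6 in sham libraries. It was not reported in either crush library, and the sham libraries had the same count. A listed 0 is a weak bound at this depth: in the whole series, 23.3% of counts of 5 or more stood beside a 0 in the other library of the group, and so did 2 of 7 such counts among the 36 circRNAs, so no fold is given. Its promoter window is the one without a GC box shown above.

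The Epb41l3 circRNA fell in the test of single circRNAs (adjusted p = 0.0454, edgeR quasi-likelihood test), where 11.9% of the 428 circRNAs tested passed, 4.44% as lower and 7.48% as higher. Here too it met the filter through the sham libraries alone. Of the 36 circRNAs, it and that of Ugt8 were the 2 tested, and the other 34 missed the filter of 5 reads in 2 libraries. The same reads did not pass among host genes (adjusted p = 0.0836, edgeR). The call on the circRNA was also lost without crush replicate 1 (adjusted p = 0.0726), without crush replicate 2 (0.0624), and without a filter on low counts (0.473, edgeR). Over 8 alternatives the adjusted p ranged from 0.0255 to 0.616 (edgeR), and without either sham library it had too few reads to be tested.

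Ank3 (ENSRNOG00000053288, chromosome 20) encodes ankyrin-G, the adaptor that gathers sodium channels and neurofascin at nodes of Ranvier. Its 3 circRNAs had 0 and 4 reads in crush libraries, against 2 and 4 in sham libraries. The groups overlapped, and the host missed the filter of the test. All 3 started at 20259263 on the plus strand and ended at 20276110, 20303087 and 20385590. The shortest had 0 and 4 reads in crush libraries and 0 and 2 in sham libraries, and the longer ones had 2 reads in 1 sham library each. On the plus strand the shared start is the acceptor side of the back-splice, so these circles joined 1 exon start to 3 different exon ends.

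Dlg1 (ENSRNOG00000038597, chromosome 11) encodes a membrane-associated guanylate kinase (MAGUK) scaffold that in mouse Schwann cells holds back myelin growth. Its 4 circRNAs had 2 and 2 reads in crush libraries, against 5 and 0 in sham libraries. The sham libraries were the highest and the lowest of the 4. Of its circRNAs, 3 shared the start 72245130, the donor side on the minus strand, with spans of 9548, 19089 and 29391 bases. The shortest of these shared its other end with the fourth circRNA, 72250229 to 72254678, which was the most abundant with 3 reads, all in sham replicate 1. Each of the 4 was reported in 1 library.

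Mpp6 (ENSRNOG00000021579, chromosome 4) encodes another MAGUK scaffold, of the p55 subfamily, found in the mouse at the incisures of Schwann cell myelin. Its 2 circRNAs had 0 and 2 reads in crush libraries, against 4 and 0 in sham libraries. No library had both, and the groups overlapped. They shared the end 79896016, and their spans were 16428 bases (4 reads in sham replicate 1) and 4761 bases (2 reads in crush replicate 2).

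Ugt8 (ENSRNOG00000009345) encodes the ceramide galactosyltransferase that makes galactocerebroside, the main glycolipid of myelin. Its only circRNA was exonic, on the minus strand of chromosome 2, 229690526 to 229691349, and its span of 823 bases was the shortest of the 35 exonic ones. It had 4 and 4 reads in crush libraries, against 8 and 7 in sham libraries. It was the only one of the 36 reported in all 4 libraries, and the libraries of a group differed by at most 1 read. The level was 0.265 ± 0.036 SRPBM in crush libraries and 0.567 ± 0.023 in sham libraries (SD, n = 2 each). As shares of all junction reads, the 95% intervals for counting error overlapped across all 4 libraries. They were 0.0132% to 0.124% and 0.0121% to 0.113% in crush libraries, against 0.0383% to 0.175% and 0.0323% to 0.165% in sham libraries. The log2 change was -0.67 ± 0.69 (SE) in the test of single circRNAs (adjusted p = 0.624, edgeR quasi-likelihood test), so it did not pass. It met the filter through the sham libraries alone, which favoured a lower value.

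Sbf2 (ENSRNOG00000009812, chromosome 1) encodes a myotubularin without phosphatase activity that partners Mtmr2 and whose loss in humans causes a demyelinating neuropathy. Its 9 circRNAs had 6 and 4 reads in crush libraries, against 14 and 11 in sham libraries. The groups lay apart by 5 reads or more. The level was 0.337 ± 0.138 SRPBM in crush libraries and 0.943 ± 0.109 in sham libraries (SD, n = 2 each), and the log2 change was -1.08 ± 0.63 (SE; adjusted p = 0.330, edgeR quasi-likelihood test), which did not pass the host test. Without crush replicate 2 the change was -0.60.

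The most abundant Sbf2 circRNA, 175171303 to 175218889, had 0 and 2 reads in crush libraries and 6 and 3 in sham libraries. It shared the end 175218889 with the circRNA starting at 175200414, which had 6 and 0 reads in crush libraries and 3 and 0 in sham libraries. These were the 2 Sbf2 circRNAs reported in both groups. Another, 175200414 to 175215404, shared its start with the second and had 2 reads in crush replicate 2. A pair sharing the start 175005900 had 2 reads each, in 1 sham library each, with spans of 5836 and 165471 bases, the second being the longest of the 36. Inside that long span lay the 1 intronic circRNA, 175010347 to 175011033, with 3 reads in sham replicate 1. It was on the plus strand, opposite to the other 8 circRNAs of Sbf2, and no annotation of that strand was used here. Leaving it out gave 11 reads for Sbf2 in both sham libraries.

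Among the hosts with more than 1 circRNA, 24 of 34 circRNAs (70.6%) shared an exact end with another circRNA of the same host and strand, against 64.3% of 2760 in the whole series. The shared ends were spread over 5 hosts: 10 of 13 circRNAs of Utrn, 5 of 9 of Sbf2, all 3 of Ank3, all 4 of Dlg1 and both of Mpp6. The 3 circRNAs of Dst used 3 starts and 3 ends. Utrn had the most shared positions, with 3 circRNAs starting at 6702976, 3 ending at 6819230, and pairs at 6804365, 6613874 and 6754239. The 3 circRNAs starting at 6702976 had spans of 51263, 116254 and 126805 bases and 0 and 2 reads in all in crush libraries, against 0 and 4 in sham libraries. The 3 ending at 6819230 had 0 and 2 reads in crush libraries, against 3 and 3 in sham libraries.

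In 2 places the start of a circle lay just inside the end of another. The Utrn circRNA ending at 6575208 and that starting at 6575079 overlapped by 129 bases, and the Sbf2 circRNAs ending at 175171371 and starting at 175171303 overlapped by 68 bases. None of the 36 shared an end with, or overlapped, a circRNA of another host or of an intergenic region. The exonic circRNAs of the 8 hosts had a median span of 16428 bases, introns included, against 8809 bases for the 3731 exonic circRNAs of the series. Of the 35, 6 (17.1%) spanned 50000 bases or more, against 6.35% of all exonic circRNAs. Each of the 6 had 2 or 3 reads in 1 library, and most of them were of Utrn.

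**Figure D3:**
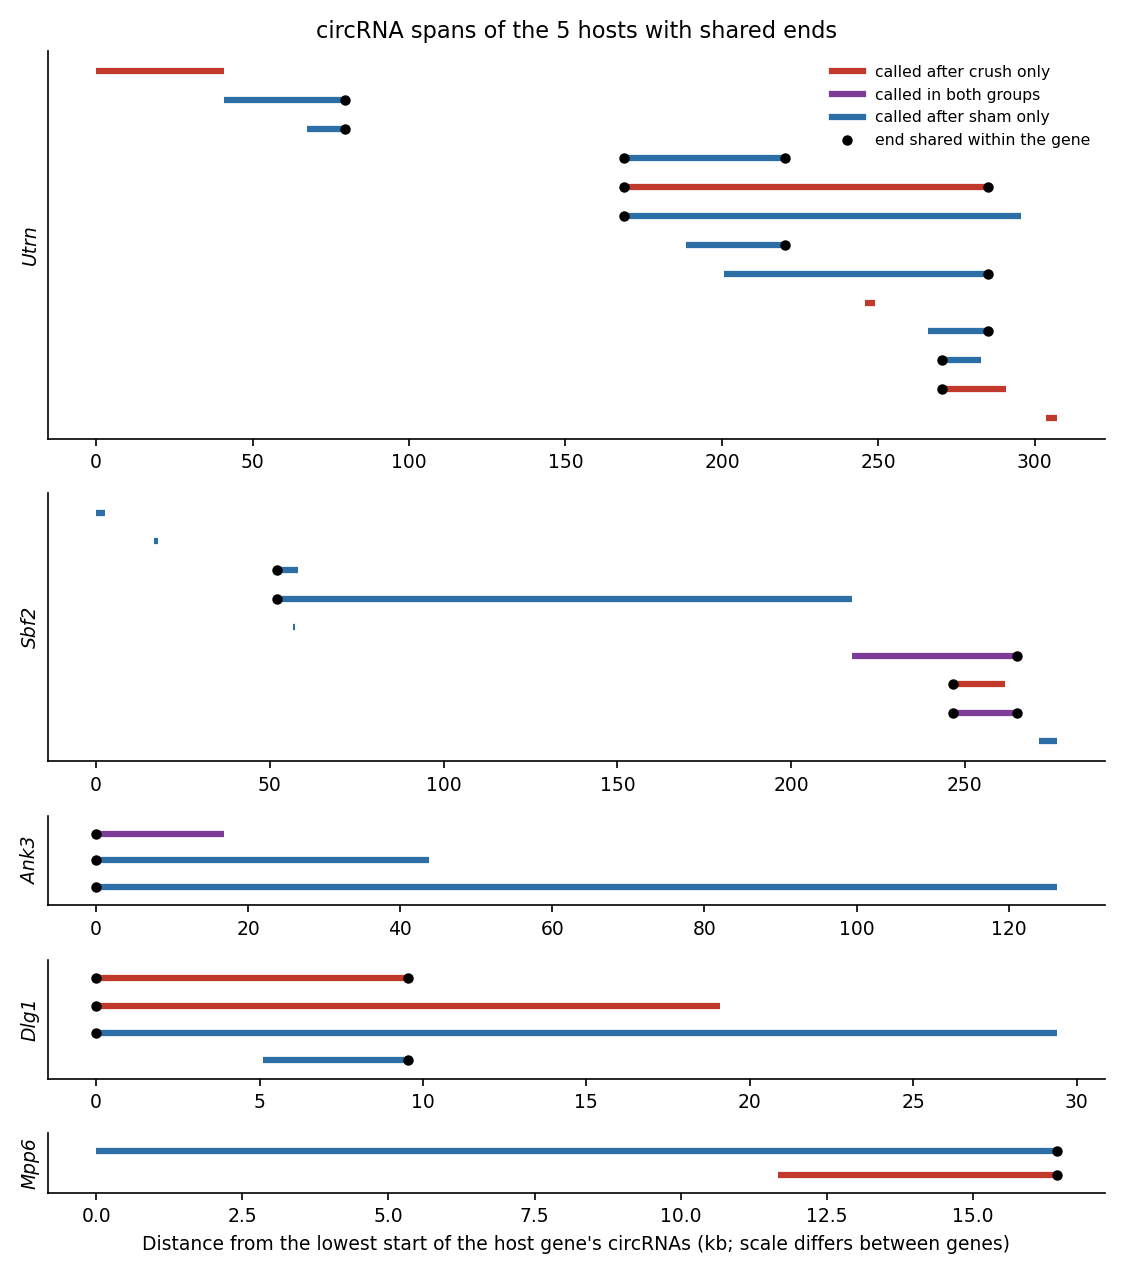
Genomic spans of the circRNAs of the 5 hosts with shared ends, as distance in kb from the lowest start (the scale differs between genes), coloured by the group in which they were reported, with a dot at each end that another circRNA of the gene shares. The Ank3 circles, and 3 of the 4 Dlg1 circles, fan out from 1 shared position in their gene, and no Utrn circle is coloured as reported in both groups.

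By mean SRPBM, the order in crush libraries was Utrn, Sbf2, Ugt8, Dst, Dlg1, Ank3, Mpp6 and Epb41l3. In sham libraries it was Utrn, Sbf2, Dst, Ugt8, Epb41l3, Ank3, Dlg1 and Mpp6. A sum over junctions does not depend on transcript length, but it grows with the number of circRNAs of a gene. Neighbours in the order had overlapping libraries in 6 of 7 steps in crush libraries, all but Ugt8 over Dst. In sham libraries they overlapped in 5 of 7 steps, the exceptions being Ugt8 over Epb41l3 and Epb41l3 over Ank3.

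**Figure D4:**
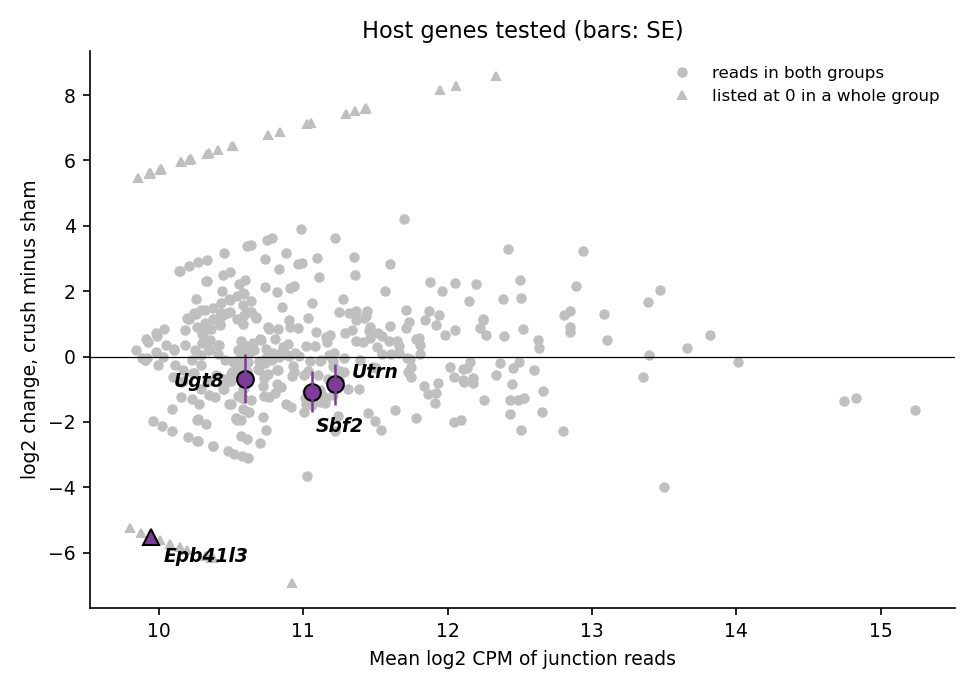
Mean log2 CPM of junction reads (horizontal) and log2 change, crush minus sham (vertical), of the 434 host genes tested, with the 4 tested hosts in purple, the SE as a bar for those with reads in both groups, and triangles for hosts listed at 0 in a whole group, whose fitted change is no bound. Ugt8, Utrn and Sbf2 lie between -0.68 and -1.08 within the cloud of other hosts.

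The profiles most like these hosts over the 4 libraries, by the distance between centred log2 CPM values, came from 430 other tested hosts. Ugt8 was nearest to Gigyf2, a translation regulator gene (distance 0.087), and to Fam208a (0.181). Sbf2 was nearest to the ubiquitin ligase gene Mib1 (0.087) and the nuclear export gene Xpo7 (0.236), and Utrn to Txndc11 (0.193) and to ENSRNOG00000061764, listed without a symbol (0.270). For Epb41l3, Lrrc16a lay at a distance of 0.162, with 0 and 0 reads in crush libraries against 5 and 6 in sham libraries. The median distance to all 430 was 1.51 for Ugt8 and 2.34 for Epb41l3. None of these neighbours passed the host test.

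Other genes of the same pathways were read from lists that leave out the 8 hosts. Of 28 genes of the dystroglycan and laminin complex to which utrophin belongs, 11 were listed as hosts, with 6 and 9 reads in crush libraries against 30 and 30 in sham libraries. The laminin alpha gene Lama2 was the only one tested, with 0 and 2 reads in crush libraries and 7 and 8 in sham libraries, which gave -2.58 ± 1.21 (SE) on the log2 scale and missed the threshold (adjusted p = 0.237, edgeR). Of 33 genes of the spectrin, ankyrin and plakin skeleton, 9 were listed, with 19 and 11 reads in crush libraries against 35 and 17 in sham libraries, and the groups overlapped. Of these, 2 were tested and neither passed: the spectrin gene Sptan1, with 0 and 3 reads in crush libraries and 12 and 8 in sham libraries (adjusted p = 0.230, edgeR), and Epb4.1l5, with 6 and 5 in crush libraries and 11 and 4 in sham libraries (0.919, edgeR). The median log2 change of these 2 was -1.33, beside 0.11 over all 434 hosts tested. Lama2 and Sptan1 met the filter through the sham libraries alone, which favoured a lower value, so nothing is read from their direction.

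Of 33 MAGUK and polarity genes, relatives and partners of Dlg1 and Mpp6, 9 were listed, with 13 and 24 reads in crush libraries against 53 and 53 in sham libraries. Most of the sham reads came from the scaffold gene Magi2, with 11 and 10 in crush libraries and 44 and 40 in sham libraries, a log2 change of -1.77 ± 0.44 (adjusted p = 0.0836, edgeR) that did not pass. Without Magi2 the list had 2 and 14 reads in crush libraries against 9 and 13 in sham libraries, and the groups overlapped. Magi3, the other member tested, had 0 and 5 reads in crush libraries and 0 and 6 in sham libraries (adjusted p = 0.973, edgeR).

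The lists around Sbf2 and Ugt8 did not have lower sums in crush libraries, though the sum around Ugt8 rested on Cers6. Of 30 myotubularin, phosphoinositide and Rab exchange genes, 16 were listed, with 246 and 137 reads in crush libraries against 116 and 177 in sham libraries, and of 7 tested, 4 were higher, 3 lower and none passed. The phosphatase gene Mtmr3 had 95 and 48 reads in crush libraries and 21 and 31 in sham libraries (adjusted p = 0.0836, edgeR), and Mtmr2, the partner of Sbf2, was not listed. Dennd4a, a Rab exchange factor gene, had 30 and 26 reads in crush libraries and 14 and 16 in sham libraries (adjusted p = 0.189, edgeR). The sums of the whole list overlapped between the groups, and the median log2 change of its 7 tested members was 0.24. Of 35 sphingolipid enzyme genes, 6 were listed, with 56 and 53 reads in crush libraries against 10 and 16 in sham libraries. Of its 2 tested members the ceramide synthase gene Cers6 passed as higher, with 49 and 39 reads in crush libraries and 0 and 0 in sham libraries (adjusted p = 0.0358, edgeR). Cers6 met the filter through the crush libraries alone, which favoured a higher value, so nothing is read from its direction. Without either crush library it had too few reads to be tested. The ceramidase gene Acer3 had 7 and 12 reads in crush libraries against 8 and 12 in sham libraries (adjusted p = 0.945, edgeR). Without Cers6 the list had 7 and 14 reads in crush libraries against 10 and 16 in sham libraries, and the groups overlapped.

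Classical Schwann cell genes were nearly absent from the circRNA tables. Of 10 defining markers, Mbp and Pmp22 were listed, with 3 reads each in sham replicate 2 alone, and among those not listed were Mag, Prx, Sox10, Egr2, S100b and Erbb3. The tables therefore do not check the cell type of the 8 hosts through these markers. A wider list of 42 Schwann cell and myelin genes had 9 listed, with 69 and 106 reads in crush libraries against 278 and 367 in sham libraries, most of them from Nfix, a transcription factor gene. Nfix was the 1 member tested. It had 67 and 106 reads in crush libraries and 265 and 348 in sham libraries, and it fell by 1.63 on the log2 scale (SE 0.29; adjusted p = 0.0490, edgeR). Without Nfix the list had 2 and 0 reads in crush libraries against 13 and 19 in sham libraries.

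Sums of some markers of other cells differed between the groups, while those of endothelial and mural markers overlapped (crush to sham ratio 0.998). The part of other cells in the lower sum of the 8 hosts was not tested. Of 17 leukocyte markers, 11 were listed, with summed levels of 4.66 to 5.73 SRPBM in crush libraries and 0 in both sham libraries, where Ptprc, Itgam and Csf3r were each at 0. The 5 tested had no sham reads and met the filter through the crush libraries alone, which fixed their direction, and Csf3r passed (adjusted p = 0.0490, edgeR). Without either crush library Csf3r likewise had too few reads to be tested. The call on Nfix, which kept enough reads for the test, was lost without crush replicate 2. Syk had 13 and 12 reads and Dock8 8 and 12 in crush libraries (adjusted p = 0.0573 and 0.0752, edgeR). Of 13 skeletal muscle markers, 5 were listed, with summed levels of 5.02 to 5.51 SRPBM in crush libraries and 15.1 to 18.5 in sham libraries. Mlip gave nearly all of these reads, 76 and 79 in crush libraries and 204 and 226 in sham libraries (adjusted p = 0.0522, edgeR), and without it the muscle list had 0 and 5 reads in crush libraries against 3 and 9 in sham libraries. Myh2, Myh4, Ttn and Actn2 were not listed. Fibroblast and perineurial markers had 0 and 2 reads in crush libraries against 10 and 11 in sham libraries from 2 of 11 genes, Lama2 and Ptch1. Endothelial and mural markers had 8 and 8 against 7 and 7 from 2 of 7 genes. The receptor gene Flt1 had 8 and 8 in crush libraries and 4 and 4 in sham libraries (adjusted p = 0.352, edgeR). Flt1 met the filter through the crush libraries alone. Of 6 adipocyte markers Pparg alone was listed, with 2 reads in sham replicate 1.

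**Figure D5:**
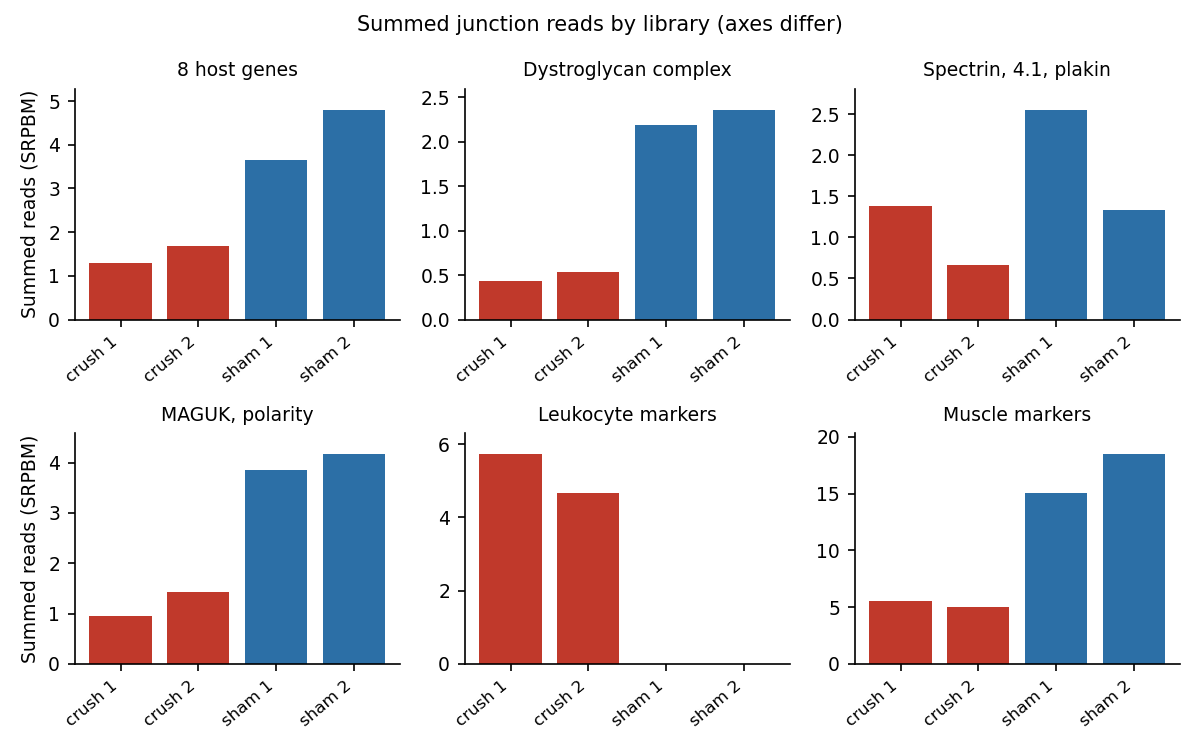
Summed back-splice reads in SRPBM of the 8 host genes, of 3 pathway lists without them and of leukocyte and muscle markers, with crush libraries (red) left of sham libraries (blue) and an axis of its own in each panel. The lists around Sbf2 and Ugt8, whose crush to sham ratios were 1.16 and 3.64, the second resting on Cers6, are not drawn. The 8 hosts had 1.31 and 1.67 SRPBM in crush libraries and 3.64 and 4.80 in sham libraries, and leukocyte markers are above 0 in the crush libraries only.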

How the data were processed

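Circular RNA of 4 rat sciatic nerve libraries (2 crush, 2 sham) was analysed from 1 table per library. Per the file headers, the authors deposited raw counts of back-splice junction reads next to an SRPBM signal, which equals the count times 1 constant in each library. The authors also deposited the genomic length, which equals end minus start. Per the submitters' processing notes, CASAVA 1.8, BWA, edgeR and build Rnor_6.0 were used, without a stated role. For the circRNA caller: not given in the sources used here.

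Host genes are those of the files, and reads were summed per host without the 3 circRNAs that have 2 hosts. Crush was compared with sham over all 4 libraries with edgeR 4.0.16's quasi-likelihood test in R 4.3.3, two-sided, on features with at least 5 reads in at least 2 libraries, with TMM scaling over these, Benjamini-Hochberg adjustment over all of them and a threshold of 0.05. This kept 428 circRNAs and 434 hosts. The steps were also run on simulated counts with a lower dispersion than that of the data (common dispersion 0.232 for circRNAs and 0.207 for hosts). That run does not measure how often the tests err on these data. Promoters are from RefSeq (GRCr8), where 7 hosts matched by symbol and Mpp6 as a synonym of Pals2. Log2 CPM used a prior count of 2. Named are all 8 hosts, their circRNAs that were tested, were reported in both libraries of a group, were most abundant, or shared an end with such a one, the 3 most abundant tested members of each list and any that passed, and the 2 nearest profiles of each tested host; a few of the genes this rule names are not reported here. The hosts and lists were chosen with earlier results of these data known. Alternatives were other scalings, filters, DESeq2 1.42.0, a replicate block and leaving out each library.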

Additional observations from a re-analysis of the deposited data

How the results depend on the processing

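Utrn, Sbf2 and Ugt8 were lower in crush libraries and did not pass the host test under each alternative that could test them (12, 12 and 9). Their log2 changes ran from -1.30 to -0.31, -1.48 to -0.60 and -1.08 to -0.45. Ugt8 met the main filter through the sham libraries alone, which favoured a lower value, so nothing is read from its direction. The Epb41l3 circRNA missed the threshold under 5 alternatives and kept it under 3, and DESeq2 gave it no adjusted p. It missed it with at least 2 reads in 2 libraries (adjusted p = 0.135) and with the replicate block (0.616, edgeR), beside those given above. The crush to sham ratio of the summed 8 hosts was 0.353, from 0.309 to 0.409 when 1 library was left out, and 0.560 without the most abundant circRNA of each host. Over the 4 hosts that missed the filter it was 0.386, but 0.559 without Dst and 0.591 without sham replicate 2, which held 17 of the Dst reads. Over the whole table, 51 circRNAs passed in edgeR (119 at an unadjusted p under 0.05), against 28 with DESeq2, 0 when the filter asked for 2 reads (434 unadjusted), 23 when it asked for 10, and 0 with the replicate block (53 unadjusted). The count was 6 without either crush library, 76 without sham replicate 1 and 49 without sham replicate 2. Of host genes 10 passed (111 unadjusted), against 32 with DESeq2, 0 when the filter asked for 2 reads (293 unadjusted), 44 when it asked for 10, 39 with no filter and 24 with the replicate block. The count was 0 without crush replicate 2 (80 unadjusted) and 84 without sham replicate 2. With TMM over all hosts before the filter, 0 hosts passed (107 unadjusted). That alternative and those on Dst and on the hosts that missed the filter were added after seeing the data. The filter was applied anew each time, which left 320 to 345 hosts to test when 1 library was left out, against 434. A host with reads in 1 group only then missed the filter when a library of that group was left out. The cause of these shifts was not tested. With the SRPBM constants as scaling there were 31 higher and 28 lower circRNA calls, against 32 and 19, and 8 higher and 6 lower host calls, against 8 and 2. The plain sum gave 5 and 3 host calls, and DESeq2 22 and 6 circRNA calls. The labels do not say that replicate numbers pair libraries, and deviations of same-numbered libraries correlated at -0.11 over the 428 circRNAs and -0.06 over the 434 hosts. Depth limits these values, since 402 of 1729 counts of 5 or more had a 0 in the other library of the group.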
